A study of Mus musculus with 9 samples.

Results

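Adrenergic receptors are the cell surface receptors for noradrenaline and adrenaline. The results below describe 8 of their genes in mouse fat: the β receptor genes Adrb3 and Adrb1, the α1 receptor genes Adra1a, Adra1b and Adra1d, and the α2 receptor genes Adra2a, Adra2b and Adra2c. They were found by symbol in the deposited table, which holds 22527 gene symbols, and each of the 8 stood on a single line. Values are FPKM, read counts corrected for transcript length and library depth, so levels can be set side by side between genes. Between libraries they also carry shifts of the whole table, given with the counts over all genes. A gene was tested if it reached 1 FPKM in at least 3 of the 9 libraries. Of the 8 receptors 4 passed (Adrb3, Adrb1, Adra1a and Adra1d), as did 10374 of all symbols, and the other 4 are described by their levels. Adra1a passed through BAT, with fewer than 3 white libraries at 1 FPKM, as did 614 of all tested genes.

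The libraries hold RNA bound to ribosomes, purified with an antibody against GFP from 3 fat depots of C57BL/6 mice aged 8 weeks, which the labels list as wild type with no treatment. The depots are brown fat (BAT, 3 libraries), inguinal white fat (iWAT, a subcutaneous depot, 3 libraries) and epididymal white fat (eWAT, a visceral depot, 3 libraries). The study's title names adipocytes, and the deposited table is named for adiponectin. The labels do not say which cells carried the GFP tag, which promoter drove it, or whether libraries came from separate animals. P-values therefore measure the spread between these libraries, which may be technical. In bulk RNA of this kind, fewer cells of a type and less RNA per cell cannot be told apart.

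Some libraries stand apart. Depth, estimated from single-read steps among low values, was about 11500000 to 20700000 reads in BAT and 16800000 in eWAT 1, against 2890000 to 4700000 in the 5 other white libraries, so that BAT and iWAT differ in depth as well as in depot. Across tested genes iWAT 1 correlated at 0.945 to 0.963 with the eWAT libraries and at 0.899 to 0.934 with iWAT 2 and 3. The title of BAT 3 names brown fat and its tissue field names inguinal fat, and the level of Ucp1, which encodes the heat-producing uncoupling protein of brown fat, was 3054 FPKM there, with the other BAT libraries at 2434 and 2626 FPKM and white libraries at 0.630 to 3.38 FPKM. Adipocyte markers were abundant in every library, their sum being 27171 to 36311 FPKM for BAT, 45416 to 82644 for iWAT and 71033 to 95530 for eWAT. Most of each sum was Fabp4 and Cfd, and the markers did not all move with it. Of the 8, limma called 4 higher and 1 lower in BAT than in iWAT (34.5% and 22.9% of all genes). Against eWAT it called 1 higher and 3 lower (20.2% and 13.5% of all genes). Beside the adipocyte markers, summed endothelial markers reached at most 16.5 FPKM and macrophage markers at most 9.30 FPKM in any library. Stromal progenitor markers summed to 7.15 to 18.2 FPKM in BAT, 62.8 to 166 in eWAT and 97.3 to 366 in iWAT, the highest in iWAT 1, where Dpt alone was at 339 FPKM. Skeletal muscle markers were at 60.6 to 150 FPKM for BAT, 1816 to 2508 for iWAT and 227 to 1300 for eWAT, and epithelial markers at 18.6 to 38.4, 130 to 359 and 51.3 to 176 FPKM. Nearly all of the muscle sum was Acta1 in BAT (58.4 to 148 FPKM) and in eWAT 1 (225 FPKM).

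Noradrenaline released by sympathetic nerves is the main signal that turns on heat production in brown fat and the release of fatty acids from white fat. The β receptors act through the stimulatory G protein, adenylate cyclase, cyclic AMP and protein kinase A. The α2 receptors act through inhibitory G proteins that hold adenylate cyclase back, and the α1 receptors act through Gq, phospholipase C and calcium release. Adrb3 is the β receptor known for its high level in rodent adipocytes, and Adrb1 is the β receptor best known from the heart.

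Promoter sequence was matched in RefSeq (build GRCm38.p6) for 5 of the 8 receptors: Adrb1, Adra1b, Adra2a, Adra2b and Adra2c. The 250 bases before the transcription start are shown for 2 genes that lie on chromosome 19 on the same strand and that ended up at opposite levels in BAT: Adrb1, high in BAT, and Adra2a, at or near 0 in every library. Capitals mark matches, on either strand, to 5 short motifs: TATAAA of the TATA box, CCAAT of the box with that name, TGACG from the cyclic AMP response element, GGGCGG of the GC box and CACGTG of the E-box, of which no matches overlap in these 2 sequences.
Adrb1, chr19:56721867-56722116, plus strand: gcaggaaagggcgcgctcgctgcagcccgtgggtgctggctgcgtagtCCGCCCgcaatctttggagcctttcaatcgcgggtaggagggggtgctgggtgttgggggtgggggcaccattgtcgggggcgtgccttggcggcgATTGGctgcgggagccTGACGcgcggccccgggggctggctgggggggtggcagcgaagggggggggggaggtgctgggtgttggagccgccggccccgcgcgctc
Adra2a, chr19:54045009-54045258, plus strand: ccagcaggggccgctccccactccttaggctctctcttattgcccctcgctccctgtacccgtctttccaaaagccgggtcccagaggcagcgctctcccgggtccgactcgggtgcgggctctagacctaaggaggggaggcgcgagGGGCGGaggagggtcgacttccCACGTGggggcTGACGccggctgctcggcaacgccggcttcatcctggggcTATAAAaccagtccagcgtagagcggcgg
The Adrb1 stretch was 74.0% G or C and the Adra2a stretch 67.6%, against a median of 52.4% over 32851 windows of the same length. Both held TGACG once, as did 17.8% of all windows at least once, and both held GGGCGG once (32.7% of windows). CCAAT stood in Adrb1 alone of this pair (33.8% of windows), while TATAAA (12.4% of windows), ending 24 bases before the start, and CACGTG (6.02%) stood in Adra2a alone. These matches describe the sequence and do not show that a factor binds there.

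Adrb3 (chromosome 8, 28336248 to 28340060, minus strand, protein-coding, build mm9) was the most abundant of the 8 receptor transcripts in each of the 9 libraries. It was at 83.7, 66.0 and 106 FPKM in BAT 1 to 3, at 105, 46.7 and 41.3 FPKM in iWAT 1 to 3, and at 173, 164 and 169 FPKM in eWAT 1 to 3. The eWAT libraries lay close together and above all the others, and BAT and iWAT overlapped. Among tested genes Adrb3 ranked above 94.9% to 95.3% in eWAT, 88.0% to 91.7% in BAT and 86.4% to 92.8% in iWAT.

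Adrb3 was lower in BAT than in eWAT, at 85.4 ± 20.2 against 169 ± 4.16 FPKM (SD, n = 3 each). The log2 difference was -1.001 (SE 0.34, 95% interval -1.75 to -0.25, limma adjusted p = 0.0427). The adjusted p ran from 0.00261 to 0.262 over 19 alternatives, and 8 of these ended the call, among them leaving out BAT 1, BAT 2, BAT 3, eWAT 1, eWAT 2 or eWAT 3 (adjusted p = 0.101, 0.154, 0.0564, 0.0701, 0.0978 and 0.105), while the difference itself stayed between -1.24 and -0.83. Against iWAT, at 64.3 ± 35.2 FPKM, BAT was not separated (log2 difference 0.51, interval -0.24 to 1.25, adjusted p = 0.217). This value moved with single libraries and with scaling, in both directions. It was 0.92 without iWAT 1 (adjusted p = 0.00475) and 0.87 with array weights (0.0170), where it was called. It was 0.34 without iWAT 2 (0.450), 0.26 without iWAT 3 (0.569), 0.33 without BAT 3 (0.489), 0.24 with median-ratio scaling (0.530) and 0.11 with quantile normalization (0.772).

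The white depots differed in Adrb3 by a log2 difference of -1.51, iWAT lower (SE 0.34, interval -2.25 to -0.76, limma adjusted p = 0.0540), just short of the threshold. Every iWAT library lay below every eWAT library. With the replicate number as a block in the fit of all 9 libraries the adjusted p was 0.0495, and with iWAT and eWAT alone under that block it was 0.0567. Over 20 alternatives the limma adjusted p ran from 0.00103 to 0.194, and 3 of these made the call. The lowest was without iWAT 1 (difference -1.92) and the highest with these depots fitted alone. Leaving out any other single library gave 0.0903 to 0.171, and median-ratio scaling gave 0.104. The difference itself stayed between -1.92 and -1.25. The gene for adiponectin, Adipoq, moved alongside: it was at 2169 FPKM in iWAT 1, 456 and 771 FPKM in iWAT 2 and 3, and 1856 to 2932 FPKM in eWAT. The ratio of Adrb3 to Adipoq, computed after these values were seen, was 0.0483 to 0.103 in iWAT, 0.0578 to 0.0886 in eWAT and 0.0587 to 0.116 in BAT. These ranges overlap, and the part of adipocyte content in the Adrb3 differences was not tested.

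Adrb1 (chromosome 19, 56796862 to 56799352, plus strand, protein-coding, 1 exon, build mm9) was highest in BAT. It was at 24.7, 33.2 and 11.6 FPKM in BAT 1 to 3, at 0.800, 3.18 and 1.06 FPKM in iWAT 1 to 3, and at 1.78, 2.66 and 3.32 FPKM in eWAT 1 to 3. The lowest BAT library, BAT 3, stood above the highest white library, and the white depots overlapped. BAT exceeded iWAT by 3.16 log2 units (SE 0.41, 23.2 ± 10.9 against 1.68 ± 1.30 FPKM, SD, n = 3, limma adjusted p = 0.000215) and eWAT by 2.66 log2 units (SE 0.41, eWAT at 2.59 ± 0.773 FPKM, adjusted p = 0.000763). In linear means these are 13.8-fold and 8.95-fold. The call held in both comparisons under all 19 alternatives, with differences of 2.85 to 3.82 and 2.35 to 3.07. With eWAT 1, the deep white library, as the only eWAT library the difference from eWAT was 3.004. The part of depth in the Adrb1 differences was not tested. The white levels correspond to about 7.04 to 68.7 reads per library. Between the white depots the log2 difference was -0.50 (interval -1.42 to 0.42, adjusted p = 0.407).

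**Figure D1:**
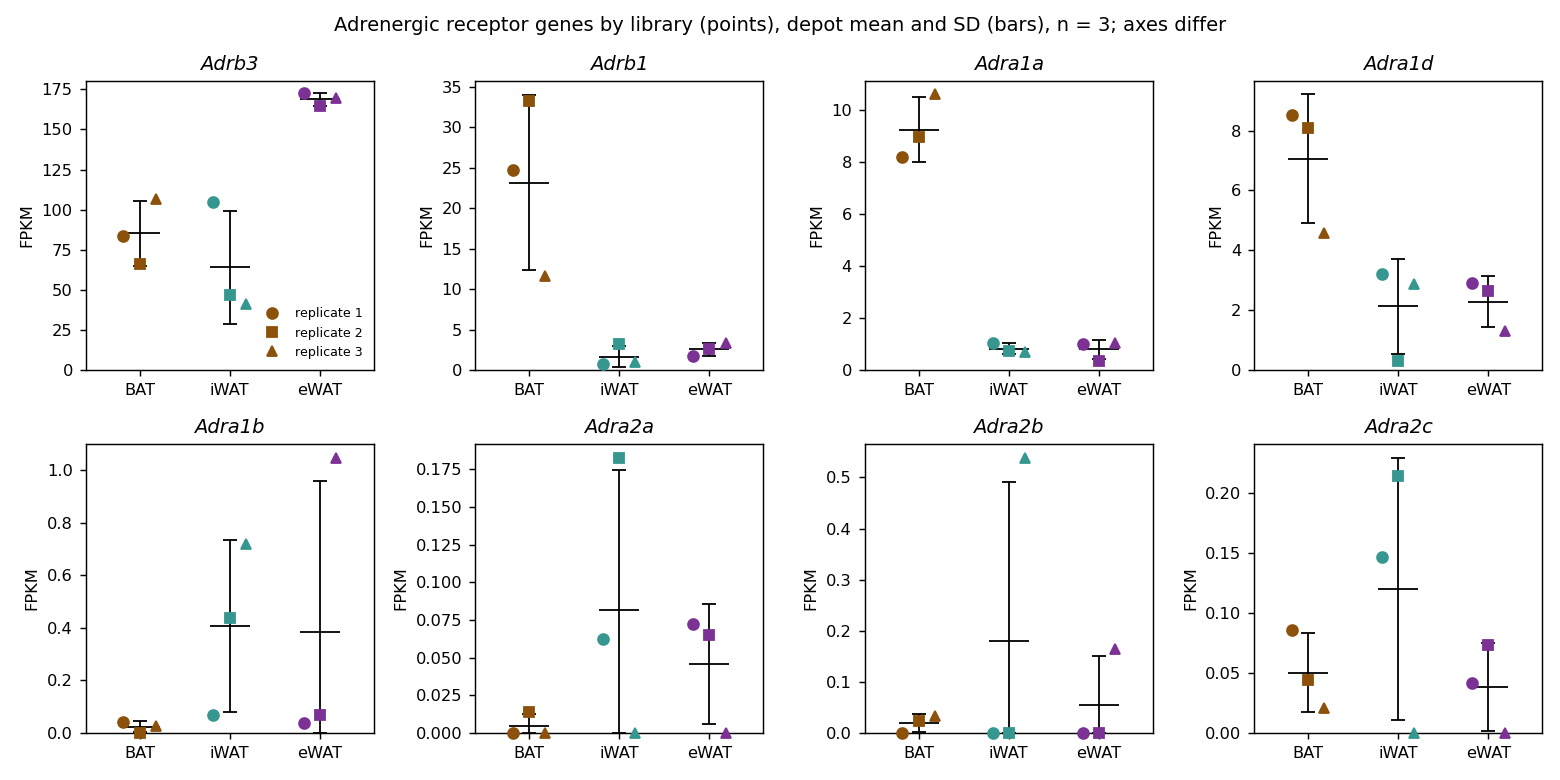
FPKM of the 8 adrenergic receptor genes in each library, with the depot on the horizontal axis, 1 point per library (circle, square and triangle for replicates 1 to 3) a horizontal line at the depot mean and error bars of 1 SD (n = 3), the lower one ending at 0 where the SD exceeds the mean. The vertical axes differ: Adrb3 lies at 41.3 to 173 FPKM, Adrb1, Adra1a and Adra1d are highest in the 3 BAT libraries, and Adra2a, Adra2b and Adra2c stay at or below 0.539 FPKM.

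Among the α1 receptors, Adra1a (chromosome 14, 67254088 to 67390005, plus strand, protein-coding, build mm9) separated BAT from white fat with the least spread. It was at 8.19, 8.96 and 10.6 FPKM in BAT 1 to 3, at 1.06, 0.743 and 0.686 FPKM in iWAT 1 to 3, and at 1.00, 0.372 and 1.04 FPKM in eWAT 1 to 3. No white library came near the BAT range, and the 2 white depots overlapped. The log2 difference was 2.48 against iWAT (SE 0.23, 9.25 ± 1.23 against 0.830 ± 0.203 FPKM, SD, n = 3, limma adjusted p = 2.70e-05) and 2.52 against eWAT (SE 0.23, eWAT at 0.803 ± 0.374 FPKM, adjusted p = 2.57e-05). Adra1a passed the filter through BAT and so could enter this fit only by being high there. Both calls held under each of the 18 alternatives in which Adra1a was tested. Among these was the fit without a filter (limma adjusted p = 0.000217 and 0.000220). The filter at a mean of 5 FPKM removed it. In linear means the ratios were 11.1 and 11.5. Between iWAT and eWAT the difference was 0.04 (interval -0.46 to 0.54, adjusted p = 0.915).

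Adra1d (chromosome 2, 131371586 to 131388021, minus strand, protein-coding, build mm9) was higher in BAT by a smaller amount. It was at 8.50, 8.08 and 4.58 FPKM in BAT 1 to 3, at 3.23, 0.314 and 2.87 FPKM in iWAT 1 to 3, and at 2.92, 2.64 and 1.31 FPKM in eWAT 1 to 3. The groups did not overlap, although BAT 3 stood near the highest white library. The log2 difference was 1.495 against iWAT (SE 0.44, limma adjusted p = 0.0146) and 1.29 against eWAT (SE 0.44, adjusted p = 0.0435). The first difference fell to 0.95 without iWAT 2 (adjusted p = 0.0354), and its call ended without BAT 1 (0.0502) or BAT 2 (0.0512), while the second ended in 7 of 18 alternatives, including without BAT 1, BAT 2, eWAT 2 or eWAT 3 (adjusted p = 0.124, 0.128, 0.0786 and 0.151). With eWAT 1 as the only eWAT library the difference from eWAT was 1.00. An antisense transcript, Gm14285, overlaps exons of Adra1d in the annotation, and the strand setting of the authors' counting is not given in the sources used here, so reads of the 2 cannot be told apart.

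Adra1b (chromosome 11, 43588108 to 43714712, build mm9), the remaining α1 receptor, was not tested. It was at 0.0421, 0.000195 and 0.0278 FPKM in BAT, at 0.0674, 0.438 and 0.719 FPKM in iWAT, while eWAT held 0.0383, 0.0689 and 1.05 FPKM. All BAT libraries were near 0, and the white libraries were uneven, eWAT 3 alone reaching 1 FPKM. Without the filter the log2 difference between BAT and iWAT was -0.43 (interval -1.04 to 0.17, limma adjusted p = 0.278).

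The summed level of the 3 α1 receptors had a mean of 16.3 ± 0.979 FPKM for BAT, 3.38 ± 1.63 for iWAT and 3.48 ± 0.446 for eWAT. Because α1 receptors are also carried by vascular smooth muscle, that cell type's 10 listed markers are given beside them. Their sum was 43.8 to 51.2 FPKM for BAT, 13.0 to 19.8 for iWAT and 18.3 to 42.8 for eWAT. Most of the BAT sum was Des, the muscle filament desmin, at 34.7 to 43.4 FPKM. The pericyte marker Cspg4 was at 4.90 to 5.30 FPKM in BAT, 4.09 to 6.11 in iWAT and 0.391 to 1.17 in eWAT. The part of these cells in the α1 differences was not tested. Of the other listed markers, Myh11 and Lmod1 did not exceed 0.143 and 0.224 FPKM in any library, or 0.0108 and 0.0856 FPKM in BAT. Acta2, smooth muscle actin, was lower in BAT (0.228 to 0.407 FPKM) than in white libraries (1.09 to 19.96 FPKM). Cnn1 went the other way, with 0.207 to 0.362 FPKM in the BAT libraries. It was 0.125 FPKM in eWAT 2 and listed at 0 in the remaining white libraries. Mylk (0.699 to 1.24 FPKM in BAT) and Tagln (0.447 to 0.994) overlapped with iWAT and lay below eWAT (6.98 to 13.7 and 1.68 to 4.09 FPKM). Notch3 and Rgs5 overlapped between BAT and both white depots. Of the 5 listed markers tested, BAT exceeded iWAT in 1 and fell below it in 1, and exceeded eWAT in 2 and fell below it in 3. The shares of all genes were 34.5% higher and 22.9% lower against iWAT, and 20.2% and 13.5% against eWAT. The part of smooth muscle cells and pericytes in the α1 differences was not tested.

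The 3 α2 receptors were at the limit of detection in all depots. Adra2a (chromosome 19, 54119672 to 54123472, 1 exon, build mm9), the α2 subtype best known as a brake on noradrenaline release, was listed at 0 in 4 of 9 libraries and reached at most 0.183 FPKM, in iWAT 2. Adra2b (chromosome 2, 127188944 to 127192957, 1 exon) was listed at 0 in 5 libraries and reached at most 0.539 FPKM, in iWAT 3. Adra2c (chromosome 5, 35621215 to 35624410, 1 exon) was listed at 0 in 2 libraries and reached at most 0.214 FPKM, in iWAT 2. By the estimated depths, these highest levels correspond to about 2.27 reads of Adra2a, 5.93 of Adra2b and 2.21 of Adra2c, and no library held more than about 4.38, 5.93 and 2.96 reads of them. Differences between depots were not detectable at this depth. Without the filter their log2 differences lay between -0.18 and 0.13 (limma adjusted p of 0.294 to 0.926).

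In counts over the receptors, 3 of the 4 tested exceeded iWAT in BAT and none fell below it. The 3 higher in BAT, here and against eWAT, include Adra1a, which passed the filter through BAT and so could enter only by being high there. The receptor counts and the shares of all genes given below are therefore not alike, and nothing is concluded from setting them side by side. Of all 10374 tested genes 57.5% were called in that comparison, 34.5% as higher in BAT and 22.9% as lower, and the groups did not overlap in 65.7%. Against eWAT 3 of 4 were higher in BAT and 1 was lower, where 33.7% of all tested genes were called, 20.2% as higher and 13.5% as lower, and the groups did not overlap in 54.6%. Between iWAT and eWAT limma called none of the 4, where 1.74% of all tested genes were called, 0.231% as higher in iWAT and 1.50% as lower. The groups did not overlap in 22.7% of all tested genes. Of the 4, 1 (Adrb3) had an unadjusted limma p under 0.05, as did 26.1% of all tested genes. The median log2 difference of all tested genes was 0.23 between BAT and iWAT, -0.02 between BAT and eWAT and -0.18 between iWAT and eWAT, and the receptor values stand against those shifts. Median-ratio scaling removed most of the first and last (0.02 and 0.01) and changed the split of all calls from 3583 higher and 2378 lower to 2944 and 2956 for BAT against iWAT, and from 24 and 156 to 32 and 78 for iWAT against eWAT. With it Adrb1 was still 2.95 and Adra1a 2.32 log2 units higher in BAT than in iWAT.

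**Figure D2:**
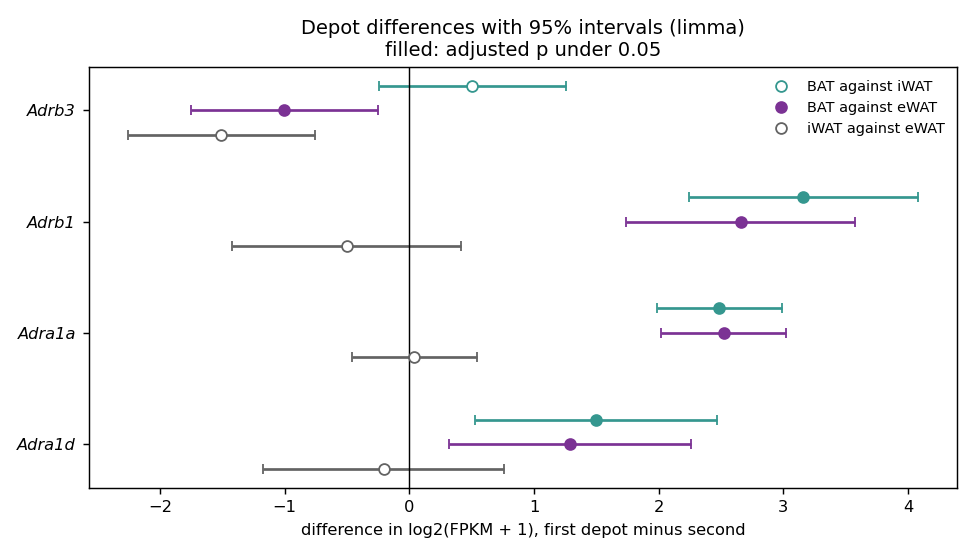
Differences in log2(FPKM + 1) between depots (horizontal axis, first depot minus second) for the 4 tested receptors, as limma estimates with 95% intervals, filled where the adjusted p is under 0.05. Adrb1 lies at 3.16 and 2.66 and Adra1a at 2.48 and 2.52 for BAT against iWAT and eWAT, while Adrb3 lies at -1.001 for BAT against eWAT.

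The make-up of the receptor signal, given as a description of these libraries, differed between depots. Adrb3 supplied 96.1% to 96.7% of the summed FPKM of the 8 genes in eWAT, 87.5% to 95.1% in iWAT and 56.8% to 79.8% in BAT. The sum itself was 125 ± 8.46 FPKM for BAT, 69.7 ± 35.1 for iWAT and 175 ± 4.26 for eWAT (SD, n = 3). Adrb1 supplied 19.7%, 28.5% and 8.74% in BAT 1 to 3 and at most 6.13% in a white library, and the α1 receptors 11.4% to 14.6% in BAT and 1.81% to 9.07% in white fat. The level of Adrb3 was 3.40, 1.99 and 9.13 times that of Adrb1 in BAT 1 to 3, 131, 14.7 and 38.8 times in iWAT 1 to 3, and 97.0, 61.8 and 51.0 times in eWAT 1 to 3. The BAT ratios lay below all white ratios. An exact two-sided permutation test of the log2 ratio gave p = 0.1 for BAT against each white depot, the smallest that 3 against 3 libraries allow, and p = 0.6 between iWAT and eWAT (adjusted over the 6 ratio tests made, p = 0.2, 0.2 and 0.7). The ratio of Adra1d to Adra1a was 1.04, 0.902 and 0.432 in BAT, 3.04, 0.423 and 4.19 in iWAT and 2.92, 7.09 and 1.27 in eWAT, and the exact test of BAT against iWAT gave p = 0.4, that of BAT against eWAT p = 0.1 and that of iWAT against eWAT p = 0.7.

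**Figure D3:**
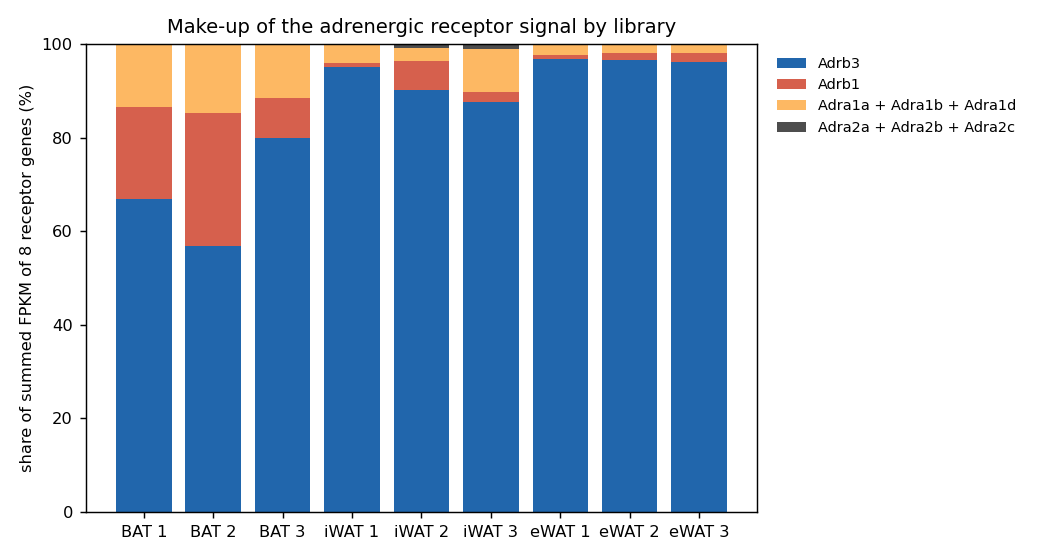
Share of the summed FPKM of the 8 receptor genes (vertical axis, percent) in each library (horizontal axis), stacked for Adrb3, Adrb1, the α1 receptors and the α2 receptors. Adrb3 makes up 56.8% to 79.8% in the BAT libraries and at least 87.5% in the white libraries, and Adrb1 reaches 28.5% in BAT 2.

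The genes closest in pattern to each tested receptor over the 9 libraries were found by Pearson correlation of log2(FPKM + 1), as a description in which the libraries share their depot. For Adra1a these were Ucp1 (r = 0.993), the mitochondrial methyltransferase gene Trmt2b (0.993) and the ATP synthase assembly factor gene Atpaf2 (0.993). Within BAT both Adra1a and Ucp1 were highest in BAT 3. BAT 1 and BAT 2 stood in opposite order, at 8.19 and 8.96 FPKM for Adra1a and 2626 and 2434 FPKM for Ucp1. For Adrb1 they were Pld6 (0.981), the membrane skeleton gene Epb4.1 (0.979) and Wdr73 (0.978). For Adra1d they were Pttg1 (0.970), Rangap1 (0.960) and Ccdc107 (0.960), which share with it the low value of iWAT 2, and for Adrb3 they were Ptpdc1 (0.975), Fkbp14 (0.970) and Bcl2l2 (0.966), which share with it the high values of eWAT.

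**Figure D4:**
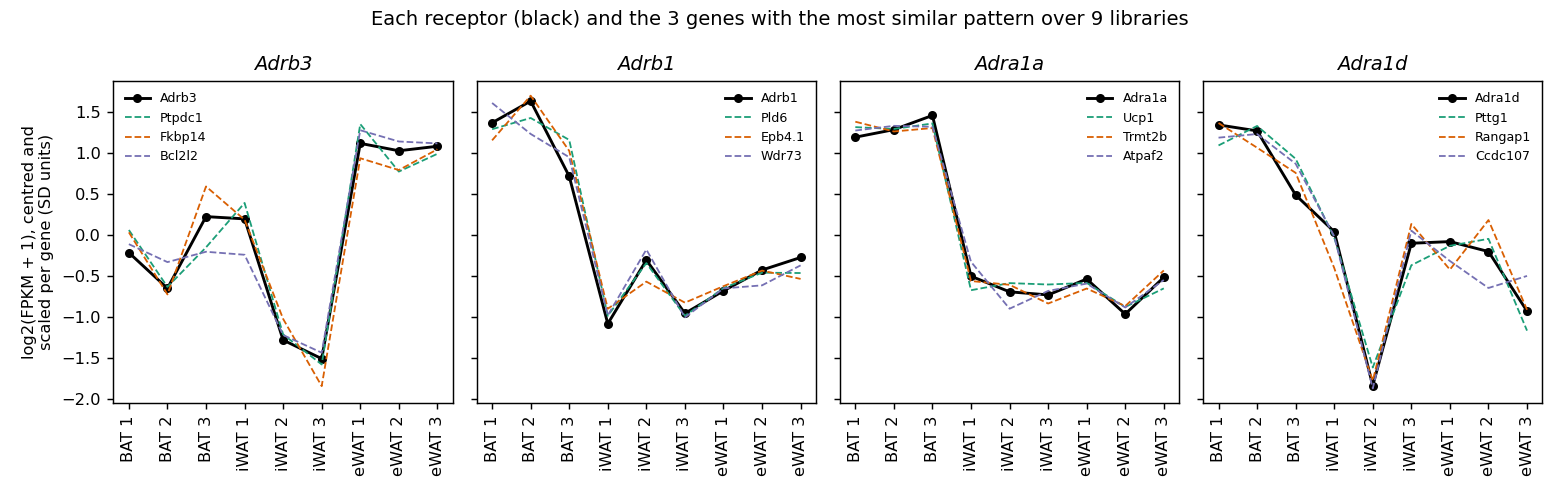
Pattern of each tested receptor (black) and of the 3 genes most correlated with it (dashed), as log2(FPKM + 1) centred and scaled per gene (vertical axis, SD units) in the 9 libraries (horizontal axis). Adra1a and Ucp1 are high in the 3 BAT libraries only, Adrb3 is highest in the 3 eWAT libraries, and Adra1d is lowest in iWAT 2.

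Genes on either side of the receptors were taken from 10 lists with 99 genes, of which 61 were tested. In BAT against iWAT 29 of them were higher and 11 lower, 65.6% of those tested, where 57.5% of all genes were called. In BAT against eWAT 18 were higher and 12 lower, 49.2%, where 33.7% of all genes were called. Between iWAT and eWAT limma called 1 of 61, the succinate receptor gene Sucnr1, which is 1.64% where 1.74% of all genes were called. An unadjusted p under 0.05 was seen in 22 (36.1%), and in 26.1% of all genes. Gnao1, Adrbk2, Pde4a, Pde4d, Pde7b, Itpr1 and Itpr2 passed the filter through BAT, with fewer than 3 white libraries at 1 FPKM, so that only genes high in BAT could enter this way, and the counts include them. The 2 comparisons with BAT share its 3 libraries.

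Of the ligand side, genes that make, take up or break down noradrenaline, 4 of 9 were tested. Th, which encodes the rate-limiting enzyme of catecholamine synthesis, was listed at 0 in all 9 libraries. Maob, a monoamine oxidase, was at 34.9 ± 1.84 FPKM in BAT, with iWAT at 12.6 ± 4.23 (log2 difference 1.45, limma adjusted p = 0.00218), and against eWAT none of the 4 was called. Sympathetic neuron and Schwann cell markers summed to at most 1.10 FPKM in any library, and none of the 9 was tested.

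Among G protein α subunits, BAT exceeded iWAT in 2 of 7 tested and fell below it in 2, and against eWAT 1 was higher and 2 lower. Of all genes 34.5% were higher and 22.9% lower in BAT than in iWAT, and 20.2% and 13.5% against eWAT. Gnao1, counted among the higher, passed the filter through BAT. Gnas, the stimulatory subunit that β receptors use, was at 2779, 1932 and 2810 FPKM for BAT, 1519, 3626 and 2514 for iWAT and 786, 1928 and 1862 for eWAT. BAT overlapped with iWAT but lay just above eWAT, and no difference passed (adjusted p = 0.938, 0.148 and 0.243). The inhibitory subunit Gnai2 was at 29.7 to 33.8 FPKM in BAT and at 73.1 to 98.5 in white libraries, a log2 difference of -1.42 against iWAT and -1.38 against eWAT (adjusted p = 0.000390 and 0.000595). Gnai1 was at 14.9 ± 2.12 FPKM in BAT and 57.6 ± 3.59 in eWAT (-1.89). Gnao1, an inhibitory subunit best known from neurons, was higher in BAT by 1.83 and 1.91 log2 units, at 3.98 to 4.78 FPKM against at most 0.655 in white libraries. Gna11, of the Gq class that α1 receptors use, was higher in BAT than in iWAT by 1.07.

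Of 10 tested genes for receptor kinases, arrestins and RGS proteins, which turn receptor signals off, BAT exceeded iWAT in 3 and fell below it in none, and 2 were higher and 2 lower against eWAT. The shares of all genes were 34.5% higher and 22.9% lower against iWAT, and 20.2% and 13.5% against eWAT. Adrbk2, counted among the higher, passed the filter through BAT. Adrbk2, a kinase that marks active receptors for shut-off, was at 6.90, 5.61 and 7.18 FPKM for BAT, 0.717, 0.745 and 0.704 for iWAT and 0.520, 0.324 and 0.733 for eWAT, log2 differences of 2.13 and 2.31 (limma adjusted p = 2.76e-05 and 1.83e-05). Its relative Adrbk1 was at 10.4 ± 1.11 FPKM for BAT, 15.7 ± 2.89 for iWAT and 10.6 ± 3.03 for eWAT (SD, n = 3) and was not called (limma adjusted p = 0.0841 and 0.974). Rgs2, which shortens Gq signals, was at 102, 51.0 and 102 FPKM in BAT and 3.17 to 17.8 in white libraries (log2 differences 3.27 and 3.26). Grk5 was higher in BAT than in iWAT by 0.76, and the arrestin gene Arrb2 was lower in BAT than in eWAT by a log2 difference of -1.63.

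The adenylate cyclases, which make cyclic AMP, included 1 gene lower and 1 higher in BAT. Adcy5 was at 0.889 to 1.67 FPKM in BAT and 9.39 to 24.3 in white libraries (log2 differences -2.87 and -3.18, adjusted p = 8.28e-05 and 4.80e-05). Adcy3 was at 8.16 to 10.7 FPKM in BAT and 0.198 to 2.36 in white libraries (1.88 and 2.42). Adcy6 was at 18.2 to 20.7 and 9.91 to 18.4 FPKM and was not called (adjusted p = 0.0577 and 0.515). Of 4 tested members, 1 was higher and 1 lower in BAT in each comparison. Protein kinase A genes were higher in 5 of 8 and lower in 1 against iWAT, and higher in 5 and lower in 2 against eWAT. Of all genes 34.5% and 22.9% were higher and lower against iWAT, and 20.2% and 13.5% against eWAT. The regulatory subunit Prkar2b was at 325 to 397 FPKM in BAT and 34.1 to 80.2 in white libraries (2.78 and 2.35). Against iWAT and eWAT, the catalytic subunit Prkaca was higher by 1.61 and 1.76, and the anchoring protein Akap1 by 1.38 and 2.19. The kinase inhibitor Pkig was lower in BAT than in iWAT (-0.98, limma adjusted p = 0.0450) and eWAT (-2.07).

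The phosphodiesterases, which break cyclic AMP down, had 6 of 11 members tested, of which 5 were higher and 1 (Pde7a) lower in BAT than in iWAT, and 4 higher against eWAT. Of the 6, 3 (Pde4a, Pde4d and Pde7b) passed the filter through BAT, so these counts are not set against those of all genes. Pde4d was at 9.43, 12.2 and 22.5 FPKM in BAT and 0.448 to 1.497 in white libraries (2.95 and 3.24). Pde8a differed by 2.53 and 2.85 and Pde4a by 2.43 and 2.42. Pde3b, the form through which insulin lowers cyclic AMP in fat, was at 38.9 to 48.5 FPKM for BAT, 9.42 to 22.4 for iWAT and 25.1 to 32.2 for eWAT, and was called against iWAT alone (1.595, adjusted p = 0.00163, and 0.57 with adjusted p = 0.160 against eWAT).

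Genes of lipolysis, the output of β receptor signalling in white fat, and of its control had 5 of 6 members higher in BAT than in iWAT, where 34.5% of all genes were. The 5 were Pnpla2, Plin1, Abhd5, Mgll and G0s2. Of these, G0s2 overlapped between BAT and iWAT (1.24, limma adjusted p = 0.0291). Against eWAT 1 of 6, the triglyceride lipase gene Pnpla2, was higher, where 20.2% of all genes were. Pnpla2 was at 680 to 813 FPKM for BAT, 66.5 to 217 for iWAT and 185 to 236 for eWAT (2.84 and 1.91). Plin1 and Abhd5 differed from iWAT by 1.59 and 1.47. Plin1, itself an adipocyte gene, was at 302 FPKM in iWAT 1 and at 89.1 and 105 in iWAT 2 and 3, the same order as Adipoq, and the part of adipocyte content in these calls was not tested. Lipe, hormone-sensitive lipase, was at 313 to 405, 251 to 527 and 462 to 544 FPKM in the 3 depots and was not called in any comparison (adjusted p = 0.986, 0.220 and 0.278). On the α1 side, genes for phospholipase C, IP3 receptors and protein kinase C had 4 of 8 members higher and 3 lower in BAT than in iWAT, and 3 higher and 2 lower against eWAT. The shares of all genes were 34.5% higher and 22.9% lower against iWAT, and 20.2% and 13.5% against eWAT. Itpr1 and Itpr2, counted among the higher, passed the filter through BAT, so these counts and shares are not alike. The calcium release channels Itpr2 (3.32 to 3.91 FPKM in BAT, at most 0.414 in white libraries) and Itpr1 (3.93 to 4.15, at most 1.14) were higher in BAT, by 1.95 and 1.58 log2 units against iWAT and 1.85 and 1.42 against eWAT. Itpr3 was lower in BAT than in iWAT (-1.73) and the kinase Prkcd lower than in both iWAT and eWAT (-1.31 and -1.21).

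**Figure D5:**
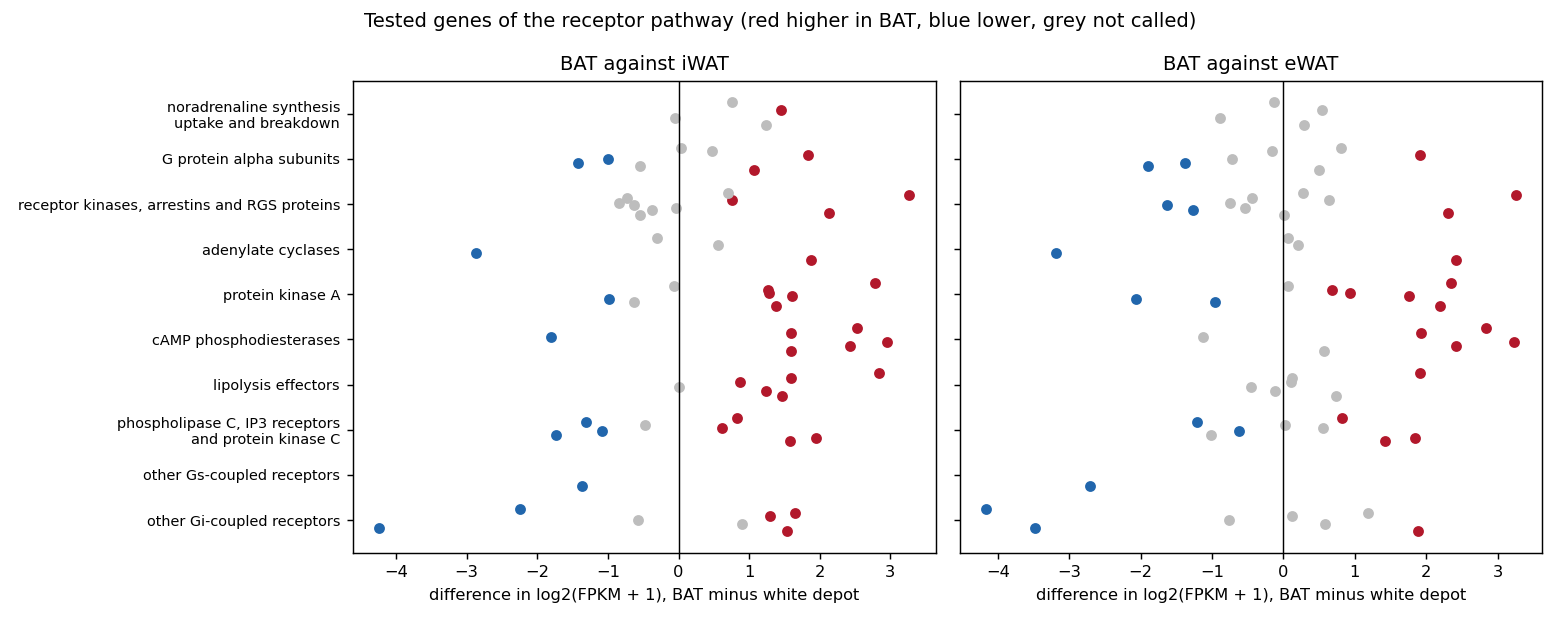
Differences in log2(FPKM + 1) (horizontal axis, BAT minus the white depot) for the 61 tested genes of 10 lists (rows), 1 point per gene, red where called higher in BAT, blue where called lower and grey where not called. Against iWAT 29 genes are red and 11 blue, and against eWAT 18 are red and 12 blue.

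Other receptors that raise or lower cyclic AMP gave a comparison for the adrenergic set. Of 14 other receptors that couple to the stimulatory G protein, the thyrotropin receptor gene Tshr alone was tested. It was at 1.35 to 4.02 FPKM for BAT, 4.12 to 11.3 for iWAT and 15.7 to 25.4 for eWAT, lower in BAT by -1.37 and -2.70 on the log2 scale (limma adjusted p = 0.0129 and 0.000463). Of 9 other receptors that couple to inhibitory G proteins 7 were tested, with 3 higher and 2 lower in BAT than in iWAT and 1 higher and 2 lower against eWAT. The shares of all genes were 34.5% higher and 22.9% lower against iWAT, and 20.2% and 13.5% against eWAT. Ffar2, a receptor for short fatty acids, was at 1.24 to 3.32 FPKM in BAT and 27.5 to 79.9 in white libraries (-4.24 and -3.48), and Sucnr1 at 1.59 to 2.25 against 6.71 to 56.2 (-2.25 and -4.17). The adenosine receptor gene Adora1 was at 16.9 to 26.5 FPKM in BAT, 5.21 to 7.85 in iWAT and 3.99 to 5.73 in eWAT (1.54 and 1.88). Ptger3, a prostaglandin receptor, was at 36.9 ± 17.8 FPKM in BAT and 12.3 ± 10.3 FPKM in iWAT (1.65, limma adjusted p = 0.0416).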

How the data were processed

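The authors deposited 1 table of gene values for 9 libraries. Per the labels' protocols, ribosomes were pulled down with an antibody against GFP, ribosomal RNA was depleted and single-end libraries were made; per the submitters' processing notes, reads were processed with TopHat and Cufflinks against mm9. Versions, annotation, filters and strand setting are not given in the sources used here. The header names no unit, and the deposited values were read as FPKM because Cufflinks gives FPKM and the columns hold fractions with unequal sums. Repeated symbols were reduced to their line of highest mean.

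Values were analysed as log2(FPKM + 1) in limma 3.58.1 (R 4.3.3, empirical Bayes with intensity trend), all 9 libraries in 1 fit with 3 depot means. Tests covered the 10374 genes that reached 1 FPKM in 3 or more libraries; p-values were adjusted by Benjamini-Hochberg and called under 0.05. Differences on this scale understate changes of low genes. The fit was tested on simulated data, with 50 genes per size of change: log2 changes of 1, 2, 3 and 4 were recovered in 38%, 80%, 98% and 98% (BAT against iWAT), in 34%, 80%, 96% and 100% (BAT against eWAT) and in 24%, 84%, 94% and 96% (iWAT against eWAT). Unchanged genes made up 5.42%, 4.32% and 1.32% of the calls.

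No read totals are given. Depth was estimated from genes with 1 transcript of at least 1000 bases (length less 200), using values worth 1 to 3 reads; 44.05% to 63.3% of the values used lay within 0.15 of a whole read, so depths and read numbers are approximate. Gene coordinates are from GENCODE vM1 on mm9.

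Deviations from the depot mean correlated at 0.165 to 0.634 when an iWAT and an eWAT library shared a number. Between other numbers they correlated at -0.576 to 0.228. The same-number values were 0.634 for number 1 and 0.534 for number 2. For number 3 the value, 0.165, lay below that of iWAT 2 with eWAT 3 (0.228). The values thus do not settle whether the numbers pair these 2 depots, the labels do not say so, and the main fit has no block. With BAT, same-number correlations ran from -0.388 to 0.121.

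Receptors, gene lists and tests were chosen with earlier results of these data known. Named genes were all 8 receptors, per list and comparison up to 3 called genes of largest difference, 6 fixed genes, and per tested receptor the 3 genes of highest correlation. Adrbk1, Pde7a, Pde7b, G0s2, Mgll, Adipoq, Th and the cell markers were named outside this rule, after their values were seen. Alternatives were another pseudocount, filters, scalings, weights and fits, a replicate block, and each library left out.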

Additional observations from a re-analysis of the deposited data

How the results depend on the processing

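The BAT calls of Adrb1 and Adra1a against both white depots held under every alternative in which each was tested. Adra1a passed the main filter through BAT and so could enter the main fit only by being high there. Other calls were less firm. The number of receptors called in BAT against iWAT was 3, and 1 with a filter at a mean of 5 FPKM, which removed Adra1a and Adra1d; leaving out a library gave 2 to 4. In BAT against eWAT it was 4, and 2 without a filter (more genes to adjust for), 2 with the filter at a mean of 5 FPKM and 2 without eWAT 2 and eWAT 3; leaving out a library gave 2 to 4. Between iWAT and eWAT it was 0, and 1 (Adrb3) with array weights and with the replicate block; leaving out a library gave 0 to 1, the 1 being without iWAT 1. The replicate block changed no other receptor call, and the block with iWAT and eWAT alone, added after the data were seen, gave 0. The small differences between the white depots changed sign: that of Adra1a (0.04) was -0.051 with array weights, -0.13 without eWAT 2 and eWAT 3 and -0.15 to 0.14 with a library left out, and that of Adra1d (-0.21) was 0.15 with array weights and -0.51 to 0.34 with a library left out. The cause was not tested. Of all genes, 5961 were called in BAT against iWAT and 3783 of 5934 with the filter at a mean of 5 FPKM. In BAT against eWAT 3492 were called, and 2244 with that filter, 6625 with array weights and 1427 without eWAT 2 and eWAT 3. Between iWAT and eWAT 180 were called, and 28 with these depots fitted alone, 1970 with array weights, 3321 without iWAT 1 and 44 to 110 under the other settings that moved the count by over 1.5 times. Depth limits the α2 receptors, whose levels rest on a few reads.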

Other observations

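Among white libraries the low receptors separated replicate 3 of both depots from the rest, a pattern seen in the values and not tested. Adra2b was listed at 0 in iWAT 1, iWAT 2, eWAT 1 and eWAT 2 and was at 0.539 FPKM in iWAT 3 and 0.164 FPKM in eWAT 3. Adra2a and Adra2c showed the opposite, both listed at 0 in iWAT 3 and eWAT 3, while the 4 other white libraries held 0.0417 to 0.214 FPKM. Adra1b was highest in the same pair, at 0.719 and 1.05 FPKM, against at most 0.438 FPKM in the others. In each of Adra2a, Adra2b and Adra2c these levels correspond to at most 5.93 reads in a library.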
